A study of Mus musculus with 2 samples.

Results

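Mucins of the mouse uterine epithelium were followed as 5 genes, Muc1, Muc4, Muc13, Muc16 and Muc20, out of the 19070 genes in the deposited table. They were chosen by symbol, and all 5 symbols were present in both libraries. The study's question was the role of the ErbB family receptor Erbb3 in the stroma of the uterus while glands take shape. Endometrial cells were collected on day 3 of pregnancy at 9 AM from Erbb3 f/f females (floxed control) and Erbb3 d/d females, whose deletion is described as stromal. There was 1 library of each genotype, made with the 10x Flex assay, in which pairs of DNA probes bind transcripts in fixed, dissociated cells. The driver of the deletion, the number of mice per library and their age are not given in the sources used here. With 1 library per genotype no test was possible. Each ratio below compares 2 preparations, its 95% interval covers counting error only, and the spread between animals is unknown.

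Mucins are heavily O-glycosylated proteins that form a lubricating and protective layer on wet epithelia. Muc1, Muc4, Muc13, Muc16 and Muc20 are of the membrane-bound kind, which span the apical membrane and extend a glycan-rich domain into the lumen, where proteases can shed it. In the uterus this layer is known as a barrier between the luminal epithelium and the blastocyst, and in mice Muc1 is known to be under ovarian hormone control and to decline before implantation. Muc16 is also a long-known product of mesothelium, the lining of the abdominal organs.

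The f/f library held 5783 barcodes and 6819591 UMIs (unique molecular identifiers, each standing for 1 captured molecule), and the d/d library held 2125 barcodes and 2866862 UMIs. After filtering, 5502 f/f and 1825 d/d cells were used, with medians of 809 and 763 UMIs per cell. No full barcode was shared between the libraries, and 158 shared their first 16 bases. Cells were gated on marker UMIs without the mucins, which gave 2533 f/f and 871 d/d epithelial cells, 203 and 73 mesothelial cells, and 1244 and 285 stromal cells. The epithelial cells carried the 13 epithelial markers at 4562 and 5252 CPM (counts per 1000000 UMIs of the class) and the 10 stromal markers at 653 and 604 CPM. Erbb3 itself was represented in stromal cells by 10 UMIs in f/f and by 2 in d/d (9.22 and 8.66 CPM), too few to check the labels, and it is not known here whether its probes lie in the deleted part.

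One f/f barcode stood apart and is named before the results that it touches. It had 8180 UMIs, against 5661 in the next deepest epithelial cell, and 2847 genes. Its epithelial markers summed to 138 UMIs and its stromal markers to 2, its mitochondrial share was 2.75% and its doublet score was 0.0165, below the library's median of 0.0576. This single barcode held 45 mucin UMIs, while no other f/f epithelial cell held more than 3 and no d/d cell more than 4. It carried 21 of the 28 Muc13 UMIs in the cells used, 14 UMIs of Muc1, 6 of Muc4, 4 of Muc20 and none of Muc16. Other genes, named after their values were seen, lay largely in it too: 71 of 72 UMIs of Clca3b, all 39 of Ppbp and 17 of 18 of Psca. The mucin ratios that it enters over all epithelial cells are given with and without it. Other values for all f/f epithelial cells, for non-cycling f/f epithelial cells or for all f/f cells include it unless they are said to leave it out. The cycling class and the gated subtypes below do not contain it. With 296 Ltf UMIs and 1 Ptpn22 UMI it passed more than 1 subtype gate and was left out of each. The Ltf-gated cells below were therefore selected almost only by Ltf.

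**Figure D1:**
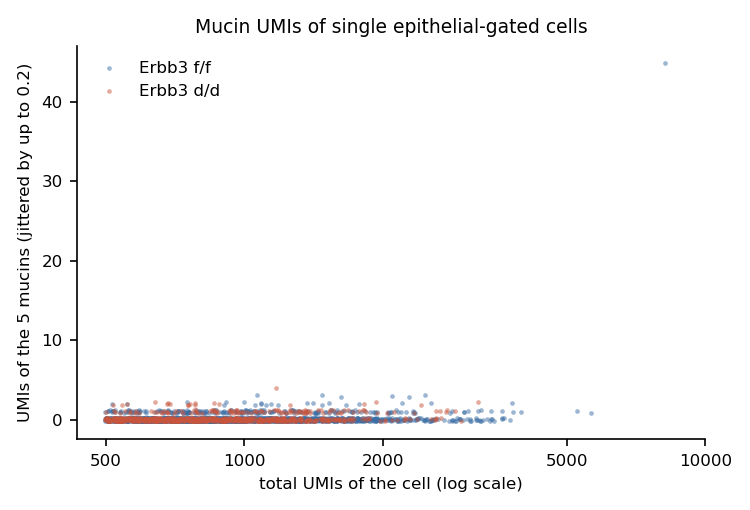
Each point is 1 epithelial-gated cell, with its total UMIs on a logarithmic horizontal axis and the summed UMIs of the 5 mucins on the vertical axis, blue for f/f and red for d/d. One f/f barcode, with 8180 total and 45 mucin UMIs, lies apart from all others, which hold 4 mucin UMIs or fewer.

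RefSeq places the genes on 3 chromosomes of the GRCm38.p6 assembly, matched by symbol because the submitters' processing notes name both mm10 and GRCm39. Each is annotated as protein coding. Muc1 (ENSMUSG00000042784) lies at chr3:89229056-89233381 on the plus strand, and Muc16 (ENSMUSG00000109564) at chr9:18495445-18674821 on the minus strand. The other three lie on chromosome 16. Muc4 (ENSMUSG00000118672) spans chr16:32735886-32782391 on the plus strand and runs toward Muc20 (ENSMUSG00000035638), chr16:32777419-32797435 on the minus strand, so that 4973 bases belong to both. Muc13 (ENSMUSG00000022824) begins 996.6 kb beyond Muc20, at chr16:33794037-33819929 on the plus strand. Because Muc4 and Muc20 are read from opposite strands, their RNAs do not share the same sequence over these bases. The positions of the probes were not known here, and an effect of the overlap on the counts was not tested.

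The 120 bases before the RefSeq start sites are shown for Muc1, Muc4 and Muc16, the members whose levels separated cell classes, read 5′ to 3′ on the gene's strand. Capitals mark TATAAA (the TATA box), GGGCGG (the GC box) and, in Muc16, TGTTCT, which is the steroid receptor half-site AGAACA on the other strand. Positions count back from the base before the start site as −1. The start site listed for Muc16 lies inside the annotated gene.
Muc1, chr3:89228936-89229055, plus strand: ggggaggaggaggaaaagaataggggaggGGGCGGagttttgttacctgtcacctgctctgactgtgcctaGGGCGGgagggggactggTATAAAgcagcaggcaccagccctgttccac
Muc4, chr16:32735766-32735885, plus strand: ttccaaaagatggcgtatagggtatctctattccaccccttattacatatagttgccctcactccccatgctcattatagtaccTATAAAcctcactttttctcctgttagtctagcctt
Muc16, chr9:18674604-18674723, minus strand: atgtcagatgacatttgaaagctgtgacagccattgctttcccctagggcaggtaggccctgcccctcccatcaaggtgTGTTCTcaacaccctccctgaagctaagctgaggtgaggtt

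Muc1 held TATAAA at −31 and GGGCGG at −91 and −49, and its window was 60.0% G and C. Muc4 held TATAAA at −36 in a window of 40.8% G and C. Muc16 held neither of these 2 motifs, and its half-site began at −41. Over all 32851 RefSeq promoter windows of 300 bases (250 before the start site and 50 after it), searched on both strands, TATAAA occurred in 13.6%, GGGCGG in 35.7% and AGAACA in 19.0%. The estrogen receptor half-site GGTCA, found in 40.5% of them, was absent from the 300 bases of Muc1, Muc4 and Muc16, occurred 3 times at the first of the start sites listed for Muc13 and occurred 2 times for Muc20. The spaced motif TTCNNNGAA, bound by STAT proteins, occurred in 8.30% of all windows and once for Muc13. No matches overlapped in these genes. A match describes letters in a window and shows no binding.

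Muc1 and Muc4 were higher in epithelial than in stromal cells in both libraries. Muc1 stood at 55.1 CPM in f/f epithelial cells (143 UMIs, 95% Poisson interval 46.5 to 64.9 CPM) and at 13.8 CPM in f/f stromal cells (15 UMIs), a log2 ratio of 1.99 (1.22 to 2.87), or 1.85 (1.08 to 2.73) without the deep barcode. In d/d it had 32 UMIs in epithelial cells (39.5 CPM, 27.0 to 55.8) and none in 285 stromal cells, at least 3.04-fold higher against the limit of 3 counts that a count of 0 allows. Stromal cells were taken as a background class, but their gate selects against epithelial RNA. They carried the epithelial markers at 471 CPM in f/f and 705 CPM in d/d. Their values therefore do not give the most that free RNA and mixed barcodes can bring, and the origin of their mucin UMIs was not tested.

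Muc4 showed the same division. In f/f it was at 59.4 CPM in epithelial cells (154 UMIs, 50.4 to 69.5 CPM) and at 9.22 CPM in stromal cells (10 UMIs), a log2 ratio of 2.69 (1.77 to 3.78), or 2.63 (1.71 to 3.72) without the deep barcode. In d/d it was at 137 CPM (111 UMIs, 113 to 165 CPM) against 26.0 CPM (6 UMIs), a log2 ratio of 2.40 (1.23 to 3.88). Leukocyte-gated cells had Muc1 at 34.0 CPM in f/f and 54.1 CPM in d/d, from 7 and 5 UMIs, and they also carried the epithelial markers at 1995 and 1947 CPM. Muscle-gated cells had 2 Muc1 UMIs in 138 f/f cells (13.2 CPM) and 4 in 30 d/d cells (122 CPM, 33.2 to 312), a d/d over f/f ratio of 3.21 (0.41 to 6.68) on those few molecules. In d/d the Muc1 level in leukocyte-gated and muscle-gated cells was thus nominally above that in epithelial cells, with overlapping intervals.

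**Figure D2:**
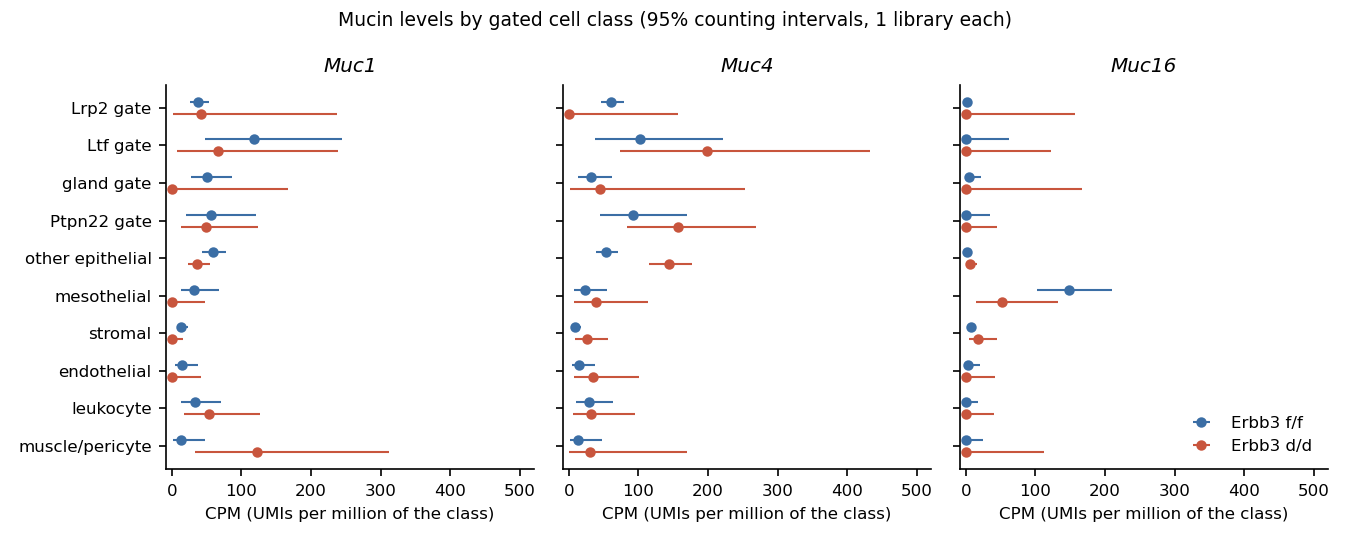
The horizontal axis gives CPM for Muc1, Muc4 and Muc16 in 10 gated classes of cells (rows), with f/f in blue, d/d in red and bars for 95% Poisson counting intervals. Muc16 is highest in mesothelial cells (149 CPM in f/f, 51.7 CPM in d/d), and Muc4 in ungated epithelial cells is at 52.9 CPM in f/f and 144 CPM in d/d. Wide bars mark d/d classes of few cells.

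Most positive cells held a single mucin molecule. Of 177 f/f cells with Muc1, 159 had 1 UMI, and of 48 d/d cells 46 did. For Muc4 these numbers were 173 of 186 in f/f and 141 of 153 in d/d. Shares of positive cells therefore follow depth closely and are given beside the CPM. Muc4 was seen in 5.49% of f/f epithelial cells (139 of 2533, Clopper-Pearson 4.63% to 6.45%) and in 11.4% of d/d epithelial cells (99 of 871, 9.33% to 13.7%). Without the deep barcode the f/f share was 5.45%. In stromal cells, taken as background, the shares were 0.723% and 2.11%, at median depths of 741 and 699 UMIs against 867 and 813 UMIs in epithelial cells. With each cell thinned to 500 UMIs, which left out 3 f/f and 2 d/d epithelial cells, the epithelial shares were 2.53% and 6.79% and the stromal ones 0.404% and 1.05%. For Muc1 the epithelial shares were 4.66% (f/f, or 4.62% without the deep barcode) and 3.56% (d/d), and 2.85% and 2.42% after thinning.

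Muc4, which has EGF-like domains and is known as a partner of the receptor Erbb2, was the mucin that differed most clearly between the libraries. Its 59.4 CPM in f/f and 137 CPM in d/d epithelial cells gave a ratio, d/d over f/f, of 1.21 on the log2 scale (0.84 to 1.57), or 2.31-fold. Without the deep barcode it was 1.26 (0.89 to 1.63). Among 7204 genes with at least 100 UMIs in epithelial cells, 5.01% were more than 2-fold higher in d/d and 4.28% more than 2-fold lower, with a median log2 ratio of −0.02. Muc4 lay above 97.2% of them, with 200 genes higher. Over all cells used, the deep barcode included, the ratio was 1.37 (1.07 to 1.68).

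The d/d epithelial cells also held more RNA of cycling markers, 4048 CPM against 1639 CPM in f/f, summed over 16 genes that were all detected in both. Among cycling epithelial cells (at least 3 UMIs of these markers) Muc4 was at 63.5 CPM for f/f (38 UMIs, 412 cells) and 167 CPM in d/d (78 UMIs, 434 cells), a log2 ratio of 1.40 (0.82 to 1.997), where 2.17% of 3219 genes were more than 2-fold higher. Among the others it was at 58.1 CPM (116 UMIs) and 96.2 CPM (33 UMIs), a ratio of 0.73 (0.12 to 1.30), or 0.80 (0.19 to 1.37) without the deep barcode, where 2.72% of 5850 genes passed 2-fold. With cells of at least 500 detected genes the interval in non-cycling cells included 0 (0.60, −0.09 to 1.25). Muc4 was thus higher in d/d on both sides of the cycling gate, and the difference between the 2 ratios was not tested. The cycling cells of the libraries lay in different graph clusters: 256 of the 412 f/f cells were in a mitotic cluster with Lrp2-gate RNA, which held 1 d/d cycling cell, while 300 of the 434 d/d cells were in another mitotic cluster, led by Knstrn, which held 39 of f/f. The cluster with most f/f cycling cells had Muc4 at 66.9 CPM (34 UMIs) in f/f. Within d/d Muc4 was higher in cycling than in non-cycling cells, by 0.80 on the log2 scale (0.19 to 1.43). Within f/f that ratio was 0.13 (−0.44 to 0.67), or 0.20 (−0.38 to 0.74) without the deep barcode.

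Epithelial subtypes were gated by Lrp2, Slc5a11 and Slc51a (luminal transport genes), by Ltf and Clca3b, by 9 gland genes, or by Ptpn22, and cells that passed no such gate stayed ungated. The libraries differed in these numbers: 820 of the f/f and 24 of the d/d epithelial cells passed the Lrp2 gate, and 279 and 24 the gland gate. In f/f the Muc4 level ran from 31.2 CPM in gland-gated cells (8 UMIs) through 52.9 in ungated cells (46 UMIs), 61.2 in Lrp2-gated cells (56 UMIs) and 92.6 in Ptpn22-gated cells (10 UMIs) to 102 CPM in Ltf-gated cells (6 UMIs). The counting intervals of neighbours in that order overlapped, while Ptpn22-gated cells exceeded gland-gated cells by a log2 ratio of 1.57 (0.08 to 3.11).

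In d/d the same classes held 144 CPM in ungated (90 UMIs), 157 in Ptpn22-gated (13 UMIs) and 199 CPM in Ltf-gated cells (6 UMIs), and just 1 and 0 UMIs in the 24 gland-gated and 24 Lrp2-gated cells, where 3 counts would be 136 and 128 CPM. Of the 3 ratios these classes allow, that of the ungated cells alone had an interval clear of 0, 1.44 (0.91 to 1.99), in a class where 4.67% of 4452 genes were more than 2-fold higher. The Ptpn22-gated ratio was 0.77 (−0.54 to 2.11) and the Ltf-gated ratio 0.97 (−0.93 to 2.87). The graph cluster labelled Ltf gave −0.01 (−0.74 to 0.73), with 33 and 34 UMIs and the deep barcode included. Its label came from a mean of 1.15 Ltf and Clca3b UMIs per cell. To this the deep barcode alone brought 296 UMIs of Ltf and 71 of Clca3b. Neither gene was among the cluster's 10 leading genes, so its ratio does not stand for the Ltf-gated cells.

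Graph clusters, made without the mucins, gave a second division, and there the Muc4 ratio was uneven. A cluster led by C3, Pigz, Prap1 and Bcl2l15, with Ptpn22 among its leading genes, had 152 CPM in f/f (27 UMIs, 211 cells) and 176 CPM in d/d (34 UMIs, 258 cells), a log2 ratio of 0.22 (−0.55 to 1.002). It is the same cluster that carried the Ltf label above, where the deep barcode was included, so the 2 ratios are not separate results. The f/f library therefore also held epithelial cells with high Muc4. A mitotic cluster led by Knstrn had 133 CPM (7 UMIs, 51 cells) and 163 CPM (74 UMIs, 409 cells), a ratio of 0.29 (−0.82 to 1.65). An S-phase cluster led by Rrm2 and Ccne2 had 7.29 CPM (1 UMI, 145 cells) and 110 CPM (22 UMIs, 250 cells), a ratio of 3.91 (1.29 to 9.28) whose f/f side rests on 1 molecule. These 3 ratios leave out the deep barcode. The other epithelial clusters held 3 d/d Muc4 UMIs or fewer each. Among them, a cluster led by Syn2 had 11 and 2 UMIs, a ratio of 1.48 (−1.74 to 3.67). One led by Igkc had 18 and 3 UMIs, 0.53 (−1.87 to 2.31). A cluster led by Gbp8, with 13 f/f and 54 d/d cells, had no Muc4 UMI in either library. How far the different numbers of cells per cluster enter the epithelial ratio was not tested.

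Within f/f, 2 clusters had a gene of the Lrp2 gate among their 10 leading genes and held 1233 cells, a choice made after the values were seen. Against these the gland cluster stood in opposite directions for Muc4 and Muc1. The gland cluster, led by Syn2 and Dab1, had Muc4 at 20.8 CPM (11 UMIs) against 56.1 CPM (62 UMIs) in the Lrp2-led clusters, a log2 ratio of −1.43 (−2.50 to −0.49). Muc1 was at 68.2 CPM (36 UMIs) in the gland cluster and 38.9 CPM (43 UMIs) in the Lrp2-led clusters, a ratio of 0.81 (0.13 to 1.48). By the per-cell gates these ratios had the same signs but intervals that included 0, −0.97 (−2.25 to 0.10) for Muc4 and 0.41 (−0.64 to 1.36) for Muc1. The C3-led cluster, which contains the deep barcode, exceeded the Lrp2-led clusters in both genes. For Muc4 the ratio was 1.66 (1.01 to 2.29), or 1.44 (0.73 to 2.11) without the barcode, and for Muc1 2.003 (1.27 to 2.72), or 1.12 (0.16 to 1.99) without it.

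**Figure D3:**
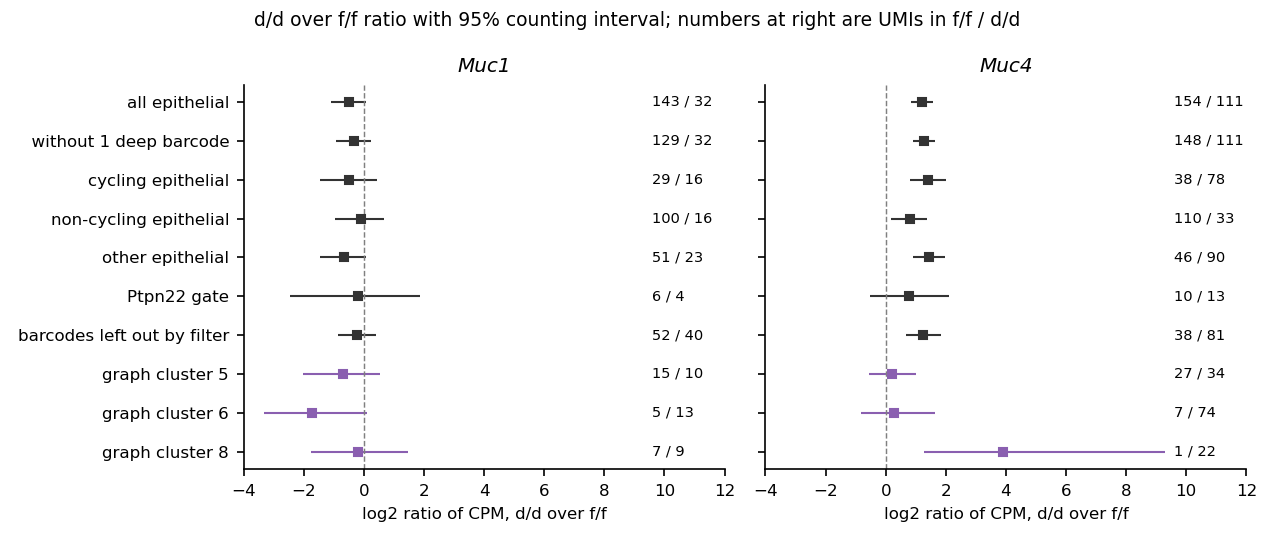
Squares give log2 of the CPM in d/d over that in f/f for Muc1 (left) and Muc4 (right), with 95% counting intervals and with the f/f and d/d UMIs printed at the right of each row. Black rows are gates or filters and purple rows are graph clusters. Muc4 squares lie above 0, at 1.21 over all epithelial cells, 0.22 and 0.29 in clusters 5 and 6, and 3.91 in cluster 8 with 1 f/f UMI. The Muc4 intervals of the Ptpn22 row and of clusters 5 and 6 include 0. The Muc1 intervals drawn here include 0. The non-cycling row and cluster 5 leave out the deep barcode.

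Muc1, the best known of the uterine surface mucins, was nominally lower in d/d, and whether its interval included 0 depended on the processing. Its 55.1 CPM in f/f and 39.5 CPM in d/d epithelial cells gave a log2 ratio of −0.48 (−1.08 to 0.08), and without the deep barcode 49.9 and 39.5 CPM gave −0.34 (−0.94 to 0.23). The interval lay below 0 with all deposited barcodes (−0.66, −1.17 to −0.18) and with classes from graph clusters (−0.56, −1.13 to −0.03), both with the deep barcode included. A ratio of 0 and a 2-fold lower level in d/d both lie within the first interval. The value was lower than that of most genes, since 17.4% of the 7204 genes lay below it. In ungated cells it was at 58.7 CPM (51 UMIs) and 36.7 CPM (23 UMIs), −0.68 (−1.45 to 0.06), which excluded 0 without the 5% highest doublet scores (−0.82, −1.65 to −0.05) and with all deposited barcodes (−0.77, −1.50 to −0.08). In cycling cells 29 and 16 UMIs gave −0.50 (−1.48 to 0.43), or −0.82 (−1.57 to −0.10) with all deposited barcodes. Over subtypes in f/f, Muc1 was lowest in Lrp2-gated cells, 38.2 CPM (35 UMIs), and reached 119 CPM in Ltf-gated cells (7 UMIs), a ratio of 1.63 (0.22 to 2.82). Gland-gated cells were at 50.7 CPM (13 UMIs) and Ptpn22-gated cells at 55.6 CPM (6 UMIs), between these ends and within error of each other.

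Few epithelial cells held UMIs of both Muc1 and Muc4, but Muc1 was seen more often in Muc4-positive than in Muc4-negative cells. Leaving out the deep barcode, 10 of 138 Muc4-positive f/f epithelial cells had a Muc1 UMI (7.25%), against 4.47% of the Muc4-negative ones. In d/d it was 7 of 99 (7.07%) against 3.11%. The Muc4-positive cells were also deeper, with medians of 1053.5 against 862 UMIs in f/f and 1086 against 795 UMIs in d/d, and the part of depth in this was not tested. At least 1 UMI of any of the 5 mucins was found in 251 f/f (9.91%) and 131 d/d (15.04%) epithelial cells, the deep barcode included.

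Muc16, the largest of the membrane mucins and the ligand of mesothelin, was a mesothelial transcript here. Mesothelial cells, gated on Upk3b, Lrrn4, Upk1b, Msln and Bnc1, held 32 UMIs in f/f (149 CPM, 102 to 210) and 4 in d/d (51.7 CPM, 14.1 to 132). Epithelial cells held 3 and 4 UMIs (1.16 and 4.94 CPM) from 2533 and 871 cells. The log2 ratio of mesothelial over epithelial was 7.01 (5.33 to 9.36) in f/f and 3.39 (0.96 to 5.81) in d/d. Against stromal cells, with 8 and 4 UMIs, it was 4.33 (3.19 to 5.66) in f/f and 1.58 (−0.85 to 4.00) in d/d. The mesothelial cells carried the 10 stromal markers at 4601 and 4109 CPM, so the gate was not free of stromal RNA.

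Between the libraries the mesothelial level of Muc16 had a log2 ratio of −1.53 (−3.49 to −0.03). This rests on 4 d/d UMIs, and the interval included 0 in cells with a mitochondrial share of at most 5% (−1.68, −4.80 to 0.32) and under a stricter gate (−1.73, −4.85 to 0.27). With all deposited barcodes 38 and 5 UMIs gave −2.29 (−3.99 to −0.94). The graph cluster named by the same markers held 46 f/f and 7 d/d UMIs (162 and 64.2 CPM), a ratio of −1.34 (−2.73 to −0.18). Muc16 was under the 100 UMIs asked of a counted gene, and of the 378 mesothelial genes that reached it 1.59% were more than 2-fold lower in d/d. In the same cells Msln was at 758 and 620 CPM, a ratio of −0.29 (−0.79 to 0.18), and Upk3b at −0.64 (−1.19 to −0.13). The other gate markers were at −0.46 (Upk1b, −0.96 to 0.01), 0.03 (Lrrn4, −0.65 to 0.68) and 0.13 (Bnc1, −0.50 to 0.72). Of the markers that the gate did not use, Wt1 was at −0.24 (−0.63 to 0.14), Gpm6a at −0.53 and Rspo1 at −0.16. Cpe, with 4 and 3 UMIs, was at 1.06 (−1.71 to 3.62). A Muc16 UMI was seen in 27 of 203 f/f mesothelial cells (13.3%, 8.95% to 18.8%) and in 4 of 73 d/d ones (5.48%, 1.51% to 13.4%). Thinned to 500 UMIs, 10 of 201 f/f (4.98%, 2.41% to 8.96%) and 3 of 73 d/d (4.11%, 0.856% to 11.5%) had one. The intervals overlapped at both depths, and a difference between the shares was not tested.

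Muc13, a mucin best known from the intestine, was not an epithelial transcript of these libraries apart from the deep barcode. The 21 UMIs in f/f epithelial cells all lay in that barcode. Without it there was no UMI in 2532 f/f cells, which by the limit of 3 counts allows a share of cells with a UMI of up to 0.118%, and none in 871 d/d cells, which allows up to 0.344%. At median depths of 867 and 813 UMIs this does not limit the share of cells that express the gene weakly. The other f/f UMIs, 5 in all cells used, included 3 in stromal cells, and d/d had 2. No ratio between the genotypes can be drawn from these counts.

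Muc20, known as a partner of the receptor Met, was rare. Epithelial cells of f/f held 7 of its UMIs (2.70 CPM) and those of d/d 6 (7.41 CPM), a log2 ratio of 1.46 (−0.39 to 3.25). Leaving out the deep barcode, which carried 4 of the 7, turned this into 3 UMIs (1.16 CPM) against 6 and a ratio of 2.68 (0.45 to 5.30). Over all cells used 9 UMIs in each library gave 1.63 and 5.28 CPM, a ratio of 1.69 (0.19 to 3.20), or 2.54 (0.81 to 4.47) without the barcode. Its direction was thus that of Muc4, whose gene it overlaps on the other strand, on counts of single molecules. None was found in the 1244 f/f and 285 d/d stromal cells. In d/d, 1 of the 99 Muc4-positive epithelial cells held a Muc20 UMI.

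Likeness of pattern was measured over 20 sums (10 classes in 2 libraries) as Pearson's r of log2(CPM + 10) among 9667 genes. These points share libraries and differ in depth and in the RNA that mixed barcodes bring, so r is a description. Tspan8, a tetraspanin, was nearest to Muc4 (r = 0.89), followed by Tmie, Clec2f, Ocln and Arhgef38. Nearest to Muc16 was Gabre (r = 0.89), then Ccdc85a, Tcea3, Wnt2b and Ppfibp2, and nearest to Muc1 was Tfip11 (r = 0.85), then Zfp7, Rundc3b, Wdr77 and Mlxip. With sums of at least 50 cells, 16 points chosen after the values were seen, Plet1 (r = 0.95) and then Tspan8 led for Muc4, Cldn15 (r = 0.95) for Muc16 and Trabd (r = 0.91) for Muc1. Tspan8, Tcea3 and Tfip11 were among the nearest 5 of their mucin both times. Muc13 and Muc20 had too few UMIs for such a comparison to be given.

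Related genes were taken from 4 lists and counted in epithelial cells where they had at least 100 UMIs, against 9.29% of all 7204 genes beyond 2-fold in either direction. Of other mucins and mucin-like proteins 16 of 19 were in the table and 2 reached the minimum, neither beyond 2-fold. Cd164, a sialomucin, was at 68.6 CPM in f/f and 43.2 CPM in d/d, a log2 ratio of −0.67 (−1.23 to −0.14), and Cd24a, a small mucin-like surface protein, at 360 and 254 CPM, −0.50 (−0.72 to −0.28). The secreted gel-forming mucins were next to undetected: Muc5ac and Muc5b had no UMI in the epithelial cells of either library, Muc2 and Muc6 had 1 each, in f/f, and Muc19 had 2 in f/f and 1 in d/d.

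Enzymes of O-glycosylation, which build the glycans that mucins carry, numbered 36, of which 16 were counted. One, B4galt1, a galactosyltransferase, was more than 2-fold lower in d/d (115 and 56.8 CPM, −1.02, −1.50 to −0.57), and none was 2-fold higher. Fut2, which adds the fucose of H-type antigens, followed at −0.88 (−1.44 to −0.37), and Galnt10, one of the enzymes that start O-glycans, at −0.72 (−1.21 to −0.26). The median of the 16 was −0.15, beside −0.02 over all genes.

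Of partners and shedding enzymes 16 were counted, 2 more than 2-fold lower in d/d and none 2-fold higher, with a median of −0.23. The membrane protease Prss8 was at 48.6 and 16.1 CPM (−1.60, −2.55 to −0.77), and Rdx, which ties membrane proteins to actin, at 176 and 67.9 CPM (−1.37, −1.80 to −0.97). Erbb2, the receptor that Muc4 binds, was at 163 and 98.8 CPM, −0.73 (−1.09 to −0.38), and Erbb3 at 80.2 and 42.0 CPM in these epithelial cells, −0.93 (−1.50 to −0.40). Egfr had a ratio of −0.40 (−0.84 to 0.02). Galectin Lgals9, which binds surface glycans, was the highest of those counted and is named after its value was seen, 0.84 (0.35 to 1.32). Met had 47 and 23 UMIs, under the minimum, and Msln, a gate marker, 10 and 5.

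Hormone receptors and regulators gave 10 counted genes, of which Greb1, a known target of the estrogen receptor, was more than 2-fold higher in d/d, at 31.2 and 131 CPM, 2.07 (1.64 to 2.50). None was more than 2-fold lower, and the median was −0.13. Stat3, which transmits the Lif signal, was at 243 and 135 CPM, −0.85 (−1.16 to −0.56), and the complement component C3 had a ratio of 0.83 (0.45 to 1.202). The progesterone receptor Pgr was at 368 and 261 CPM, −0.50 (−0.72 to −0.28), and the estrogen receptor Esr1 at 941 and 873 CPM, −0.11 (−0.23 to 0.01).

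**Figure D4:**
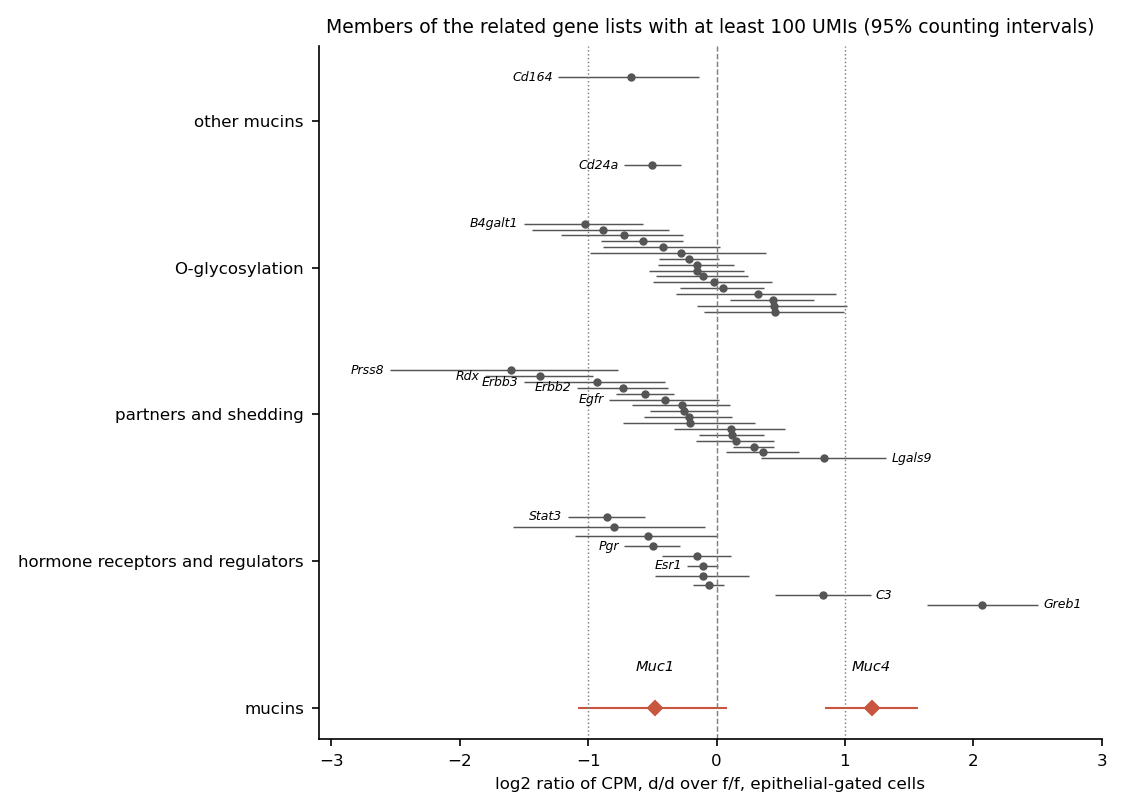
Each point is 1 gene of a list with at least 100 UMIs in epithelial cells, placed by log2 of its CPM in d/d over that in f/f with a 95% counting interval, with Muc1 and Muc4 below in red. Dotted lines mark 2-fold. Greb1 (2.07) and Muc4 (1.21) lie beyond 2-fold on the higher side, and Prss8 (−1.60), Rdx (−1.37) and B4galt1 (−1.02) on the lower side.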

How the data were processed

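For each of the 2 libraries the authors deposited raw UMI counts of genes in barcodes, without normalization. The file headers name Cell Ranger 9.0.0. The submitters' processing notes name mm10 and GRCm39 without their roles. The members, lists and gates were chosen with earlier results of these data known, and the gate thresholds were set after the data were seen. Barcodes with at least 200 genes and at most 10% mitochondrial UMIs were used. Scrublet (scanpy 1.11.5, Python 3.11.15) called 1 f/f and 5 d/d doublets, too few for the caller to have worked, so leaving out the 5% highest scores was tried too. A cell was epithelial with at least 2 UMIs of 22 epithelial and gland markers and more of them than of stromal ones, stromal with at least 3 and more than double its epithelial ones, and mesothelial, endothelial, leukocyte or muscle with at least 2. Subtypes needed 2 marker UMIs, or 1 of Ptpn22. Cells that passed several gates were left out of the single classes. Leiden clusters (leidenalg 0.10.2, resolution 1.5, 2000 variable genes, 30 components, 15 neighbours) gave 19 groups. UMIs were summed per class and library and scaled to CPM. Sums have exact Poisson intervals, shares Clopper-Pearson and ratios exact conditional binomial intervals, all at 95% and covering counting error only. A count of 0 was bounded by 3 counts. No test was run. The 5 mucins are named, and of each list the members beyond 2-fold or, where these are fewer than 3, the 3 largest, together with Msln, Erbb2, Erbb3, Egfr, Met, Esr1 and Pgr. The 5 genes of highest correlation are named for Muc1, Muc4 and Muc16, while Muc13 and Muc20, which the rule covers too, were left out for their low counts. Alternatives changed the cell filter, doublets, gates, scaling, gene minimum and thinning.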

Additional observations from a re-analysis of the deposited data

Results flagged for a closer look

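Barcodes left out by the cell filter, 281 of f/f and 300 of d/d, were nearly all left out for a mitochondrial share above 10%. They enter the comparisons above only where all deposited barcodes are named, and they held mucin UMIs beyond the limit that a count of 0 allows. They held 119 UMIs of Muc4, 92 of Muc1, 11 of Muc16 and 10 of Muc20 over both libraries, and none of Muc13. Muc4 was at 29.2 CPM in f/f (38 UMIs) and 69.7 CPM in d/d (81 UMIs), a ratio, d/d over f/f, of 1.26 on the log2 scale (0.68 to 1.85), the direction seen in the cells used. Muc1 was at 39.9 CPM (52 UMIs) and 34.4 CPM (40 UMIs), −0.21 (−0.85 to 0.41). Muc20 had 2 and 8 UMIs, 2.16 (−0.16 to 5.44), and Muc16 had 7 and 4 UMIs, −0.64 (−2.86 to 1.33). These barcodes were deeper than the cells used, with medians of 2083 and 1593.5 UMIs.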

How the results depend on the processing

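No paired analysis was possible because each genotype had 1 library. The Muc4 ratio in epithelial cells ran from 1.02 (all deposited barcodes) to 1.26 (without the deep barcode) over 9 alternatives, and that of Muc1 from −0.66 to −0.34, and neither changed sign. The Muc1 interval was clear of 0 with all deposited barcodes and with graph clusters (−0.56) and included 0 under the other alternatives. The Muc20 interval was clear of 0 with all deposited barcodes (1.73), with graph clusters (1.92) and without the deep barcode (2.68). Classes from graph clusters gave log2 ratios of 2.87 for Muc1 in epithelial over stromal cells in f/f (1.99 by the gates), 4.41 for Muc4 in d/d (2.40) and 5.97 for Muc16 in mesothelial over epithelial cells in d/d (3.39), the last pair with 1 UMI in the lower class. Muc4 in Ptpn22-gated cells turned from 0.77 to −1.31 (−6.87 to 1.85) under a stricter gate that left 5 and 1 UMIs. Thinning to 500 UMIs, which lowers any share by construction, gave 2.53% in f/f and 6.79% in d/d for Muc4 and 2.85% and 2.42% for Muc1. At 1000 UMIs, which left out 1590 f/f and 597 d/d cells and so kept the deeper ones, the Muc4 shares were 5.73% in f/f and 15.3% in d/d. Those of Muc1 were 3.92% and 2.92%. With a gene minimum of 20 UMIs, which counts more genes, members beyond 2-fold numbered 3 of 24 for O-glycosylation and 3 of 14 for hormone receptors and regulators. For other mucins they numbered 1 of 4 and for partners and shedding 4 of 20. With 300 UMIs they numbered 0 of 6 for hormone receptors and regulators and 1 of 11 for partners and shedding, and with graph clusters 2 of 10 and 4 of 16. The share of all genes beyond 2-fold is not given for these settings, so these counts have no background beside them. The cause of the cluster values was not tested. Depth limits Muc13, Muc16 in d/d and Muc20 to single molecules, and the Lrp2 and gland gates in d/d to 24 cells each.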
